A study of Homo sapiens with 4 samples.

Results

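The nuclear lamins and the proteins that tie the lamina to chromatin and to the cytoskeleton were examined as a group of 10 genes: LMNA, LMNB1, LMNB2, LBR, TMPO, EMD, SUN1, SUN2, SYNE1 and SYNE2. The genes were taken by symbol, and each matched a single row among the 56304 gene rows of the count table. The cells were MV3, an established line of highly metastatic human melanoma, and in every library they carried H2B-GFP, a fluorescent histone. Spheroids of 50000 cells and a diameter of 1 mm were embedded in collagen I and dissected on day 2 into the core (1 mm punch) and the surrounding invasion zone (3 mm punch). Each zone had 2 libraries, numbered replicate 1 and replicate 2. The vertical punch can leave invading cells above and below the spheroid in the core sample. How many spheroids went into a library is not given in the sources used here, so p-values measure only the spread between these samples, which may be technical.

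The lamina is a meshwork of intermediate filaments under the inner nuclear membrane. A-type lamins (lamin A and lamin C, both from LMNA) are the component best known for setting the stiffness of the nucleus, while the B-type lamins (LMNB1 and LMNB2) stay attached to the membrane through a farnesyl anchor. LBR, the TMPO product LAP2 and emerin (EMD) hold lamins and chromatin at the inner membrane. SUN proteins of the inner membrane bind the KASH domain of nesprins (SYNE1 and SYNE2) in the outer membrane, and this LINC complex transmits force from actin and microtubules to the lamina. Deformation of the nucleus is a known limit for cells that squeeze through dense collagen.

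The core libraries held 36363358 and 14983135 counts and the invasion zone libraries 37591782 and 11789243 counts, so the replicate 2 libraries were the shallower ones in both zones. Levels are given as normalized CPM, counts per 1000000 after TMM (trimmed mean of M values) scaling. The melanocyte lineage markers SOX10 and TYR had 0 counts in every library, MITF lay between 1.70 and 3.39 CPM of the unscaled library total, PMEL and MLANA were at most 1.02, and DCT and S100B had at most 3 counts. Of 4 markers of the dedifferentiated state, AXL (623 to 1220) and EGFR (133 to 209) were high on that scale, NGFR had at most 2 counts, and WNT5A had 177 and 81.8 in the core and 53.9 and 18.1 in the invasion zone. Of 6 markers of other cell types, DCN and LUM had 0 counts, PTPRC, EPCAM and KRT5 had at most 7, and the endothelial marker PECAM1 had 648 and 112 counts in the core and 196 and 11 in the invasion zone. PECAM1 was the only one of these 6 markers with enough counts for the comparison of zones. Its normalized CPM was 18.1 and 7.43 in the core and 5.23 and 0.93 in the invasion zone. The part of these 6 markers in the results was not tested. The zones were compared by the quasi-likelihood test of edgeR over 15529 genes, and a gene passed at a Benjamini-Hochberg adjusted p under 0.05. Without a replicate term 0 of the 15529 genes passed (smallest adjusted p = 0.128, 3769 genes or 24.3% at an unadjusted p under 0.05), while DESeq2 passed 1681. A model that also fits the replicate number, called the replicate block here, passed 6019 genes. It takes same-numbered libraries as pairs and leaves 1 residual degree of freedom per gene, against 2 without a replicate term. A log2 fold change is positive where the invasion zone was higher, and its error is a standard error (SE).

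All 10 genes were tested and 0 of them passed without a replicate term, against a background of 0% of all genes. With the replicate block, LMNB1, LMNB2, LBR and TMPO passed as higher in the invasion zone and SUN1 and SYNE1 as lower, 6 of 10 where 38.8% of all genes passed. LMNA, EMD, SUN2 and SYNE2 did not pass in either test. In direction, 4 of 10 passed as higher against 19.4% of all genes, and 2 of 10 as lower against 19.4%. The 10 genes had a median log2 fold change of 0.23, and all genes tested one of -0.0094. In bulk RNA a change in the number of cells that express a gene and a change in RNA per cell cannot be told apart.

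**Figure D1:**
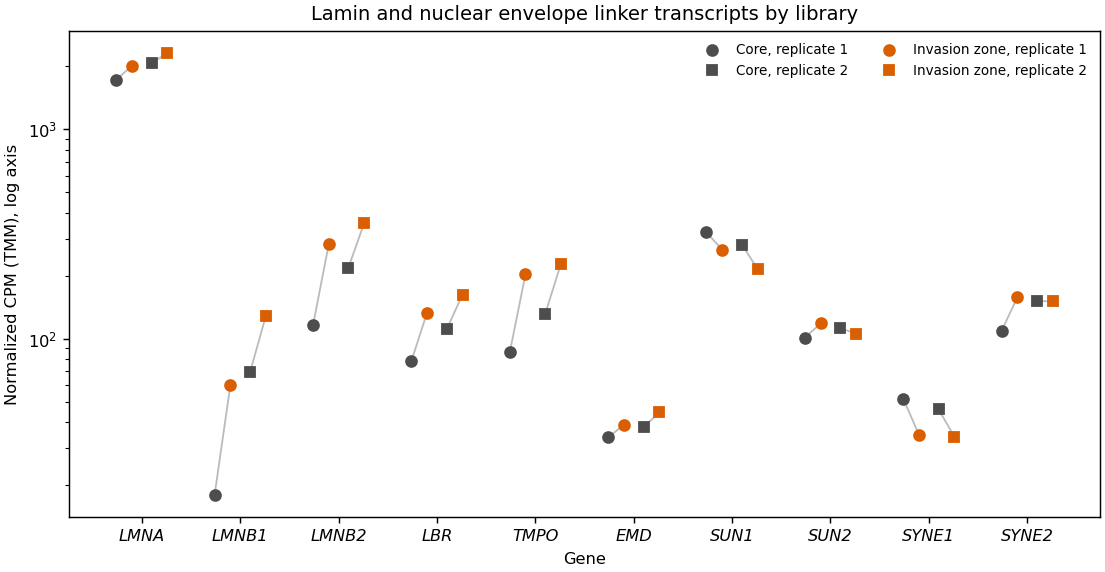
Normalized CPM of the 10 genes on a log axis, each point a library, with a grey line joining the core and the invasion zone library of a replicate number. LMNB1, LMNB2, LBR and TMPO rise along both lines, LMNA and EMD rise less along both, and SUN1 and SYNE1 fall along both. LMNA lies highest at 1730 to 2311 CPM.

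LMNB1 (ENSG00000113368, chromosome 5 of GRCh38, 126776623 to 126837020, plus strand) encodes lamin B1, which is farnesylated throughout its life and is lost from many senescent cells. It had 17.97 and 69.2 CPM in core replicates 1 and 2, and 60.0 and 128 CPM in invasion zone replicates 1 and 2. Core replicate 2 lay above invasion zone replicate 1, so the zones overlapped, but within each replicate the invasion zone was the higher one, by 3.34-fold and 1.85-fold. Without a replicate term the log2 fold change was 1.12 (SE 0.68, adjusted p = 0.368, edgeR), and with the replicate block it was 1.31 (SE 0.17, adjusted p = 0.000568). The replicates also differed from each other, with replicate 2 at 3.85 times replicate 1 in the core and at 2.13 times in the invasion zone. Leaving out core replicate 1 gave a log2 fold change of 0.45 (adjusted p = 0.640), leaving out core replicate 2 gave 2.39 (adjusted p = 0.00120). Leaving out invasion zone replicate 1 gave 1.57 (adjusted p = 0.0367), and leaving out invasion zone replicate 2 gave 0.47 (adjusted p = 0.585).

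LMNB2 (ENSG00000176619, chromosome 19, 2427638 to 2456959, minus strand) encodes lamin B2. It had 116 and 219 CPM in the core and 283 and 357 CPM in the invasion zone. Neither core library reached the invasion zone values, with a 2.44-fold difference in replicate 1 and 1.63-fold in replicate 2. The log2 fold change was 0.94 (SE 0.33, adjusted p = 0.172), and 1.00 with the replicate block (SE 0.12, adjusted p = 0.000414). It ranged from 0.56 without core replicate 1 to 1.47 without core replicate 2. It passed without core replicate 2 (adjusted p = 0.00481) and without invasion zone replicate 1 (adjusted p = 0.0275). LMNB2 was the more abundant of the B-type lamin transcripts in every library, and per exonic base the ratio of LMNB2 to LMNB1 was 4.34 and 2.13 in the core and 3.17 and 1.88 in the invasion zone.

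TMPO (ENSG00000120802, chromosome 12, 98515579 to 98550351, plus strand) encodes the LAP2 family, whose membrane-bound forms bind B-type lamins and whose soluble alpha form binds A-type lamins inside the nucleus. The count table does not separate these forms. TMPO had 86.0 and 131 CPM in the core and 203 and 228 CPM in the invasion zone, without overlap. It had the smallest unadjusted p of the 10 genes, with a log2 fold change of 0.99 (SE 0.23, adjusted p = 0.133) and 1.02 with the replicate block (SE 0.11, adjusted p = 0.000207). DESeq2 without a replicate term passed TMPO (adjusted p = 0.00490) and LMNB2 (adjusted p = 0.0356) and none of the other 8 genes, where 10.8% of all genes passed (5.25% as higher and 5.58% as lower). Without core replicate 1 the edgeR value was 0.72 (adjusted p = 0.247), and TMPO passed with any of the other libraries left out. TMPO shares 646 of its 8498 exonic bases with an antisense gene, and the strand setting of the counting is not given in the sources used here.

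LBR (ENSG00000143815, chromosome 1, 225401502 to 225428925, minus strand) encodes the lamin B receptor, which tethers heterochromatin and also acts as a sterol reductase. It had 78.1 and 111 CPM in the core and 133 and 163 CPM in the invasion zone. The zones did not overlap, and the invasion zone was 1.71-fold and 1.46-fold higher within the replicates. The log2 fold change was 0.65 (SE 0.22, adjusted p = 0.168), and 0.66 with the replicate block (SE 0.09, adjusted p = 0.000551). It was 0.42 without core replicate 1, and 0.93 without core replicate 2 (adjusted p = 0.0477). EMD (ENSG00000102119, chromosome X, 154379273 to 154381574, plus strand) encodes emerin, a LEM domain protein that binds lamin A and the chromatin protein BAF. EMD had 33.8 and 37.7 CPM in the core and 38.7 and 44.4 CPM in the invasion zone. These values did not overlap, but the log2 fold change of 0.22 (SE 0.16) passed neither without a replicate term (adjusted p = 0.443) nor with the block (adjusted p = 0.124), and was 0.12 without invasion zone replicate 2. The zones did not overlap for 58.4% of all genes tested, with the invasion zone above for 28.1% and below for 30.3%. Among the 10 genes this held for LMNB2, LBR, TMPO and EMD upward and for SUN1 and SYNE1 downward.

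Promoter sequence is shown for 4 of the genes. LMNB1, LMNB2 and TMPO had the largest fold changes among those higher with the block, and SUN2 passed neither without a replicate term nor with the block. Sequences are RefSeq windows on GRCh38.p14, read 5′ to 3′ on the strand of the gene, and capitals mark a CCAAT box (CCAAT or ATTGG) or a cell cycle homology element (TTTGAA or TTCAAA). For LMNB1 only 30 bases around its match are shown, because bases before its start lie in an exon of a longer transcript. A stretch placed around a match holds that match by construction.
LMNB1, chr5:126776986-126777015: tgcctgctccccATTGGcccatggtagtca
LMNB2, chr19:2456960-2457109: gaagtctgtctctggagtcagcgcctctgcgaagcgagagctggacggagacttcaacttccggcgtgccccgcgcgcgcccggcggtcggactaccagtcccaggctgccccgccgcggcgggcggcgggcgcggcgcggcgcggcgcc
TMPO, chr12:98515440-98515578: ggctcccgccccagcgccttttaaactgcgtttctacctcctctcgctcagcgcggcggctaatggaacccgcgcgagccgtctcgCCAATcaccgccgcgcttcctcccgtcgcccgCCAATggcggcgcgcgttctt
SUN2, chr22:38756001-38756148: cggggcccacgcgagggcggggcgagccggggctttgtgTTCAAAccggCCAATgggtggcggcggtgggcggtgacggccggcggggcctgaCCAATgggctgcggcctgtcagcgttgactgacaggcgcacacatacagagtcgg

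The stretch of LMNB2 holds neither element and that of SUN2 holds both. Of the genes not printed, the window nearest the canonical start of EMD holds CCAAT boxes, and those of LBR and SYNE1 hold none of the letters searched. Windows from 250 bases before the start to 50 after it were searched on both strands, and that of LMNB2 holds a TTTGAA match further from the start than the stretch shown. The CCAAT box was found in 34.6% of all 35116 windows and TTTGAA in 15.2%. The E2F sites TTTCCCGC, TTTCGCGC, TTTGCCGC and TTTGGCGC, found in 3.31% of windows, were absent from the windows nearest the GENCODE canonical start of LMNB1, LMNB2, LBR and TMPO and present in that of SYNE2. SUN1 has no entry in the promoter table. For LBR the nearest window lies around a start 783 bases from the canonical one, which it does not cover. For LMNA the nearest one lies around a start 7995 bases away and holds none of the letters. Another LMNA window holds an E2F site and a CCAAT box. A match is a description of letters and was not tested for function.

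LMNA (ENSG00000160789, chromosome 1, 156082573 to 156140081, plus strand) was the most abundant of the 10 transcripts and differed little between the zones. It had 1730 and 2081 CPM in the core and 2014 and 2311 CPM in the invasion zone, so core replicate 2 lay above invasion zone replicate 1. Within the replicates the invasion zone was 1.16-fold and 1.11-fold higher. The log2 fold change was 0.18 (SE 0.18, adjusted p = 0.563), and 0.19 with the replicate block (SE 0.07, adjusted p = 0.0694), and without any single library it stayed between 0.066 and 0.33. Lamin A and lamin C differ in their last exons and were not separated by these counts.

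The balance of A-type and B-type lamin transcripts was computed within each library and was lower in the invasion zone. Per exonic base, the ratio of LMNA to the sum of LMNB1 and LMNB2 was 8.05 and 4.29 in the core and 3.59 and 2.80 in the invasion zone. All invasion zone values lay below the core values, and within replicates 1 and 2 the core ratio was 2.24 and 1.53 times that of the invasion zone. The size of the ratio depends on the length used: per base of the canonical transcript it was 17.5 and 9.21 in the core and 7.76 and 5.995 in the invasion zone, with nearly the same differences between the zones (2.25 and 1.54 times). The mean difference was -0.89 ± 0.39 (SD of 2 replicates) on the log2 scale. It was -1.13 with LMNB1 alone and -0.81 with LMNB2 alone. Of the summed lamin transcripts per exonic base, LMNA made up 89.0% and 81.1% in the core and 78.2% and 73.7% in the invasion zone, and LMNB1 2.07% and 6.04% against 5.22% and 9.15%. Per base of the canonical transcript the LMNA share was 94.6% and 90.2% against 88.6% and 85.7%. These ratios are formed within a library and do not depend on the scaling between libraries. The ratio is given as a description, since an exact permutation test of 2 against 2 libraries cannot give a two-sided p below 0.333 and no other test of it was run.

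**Figure D2:**
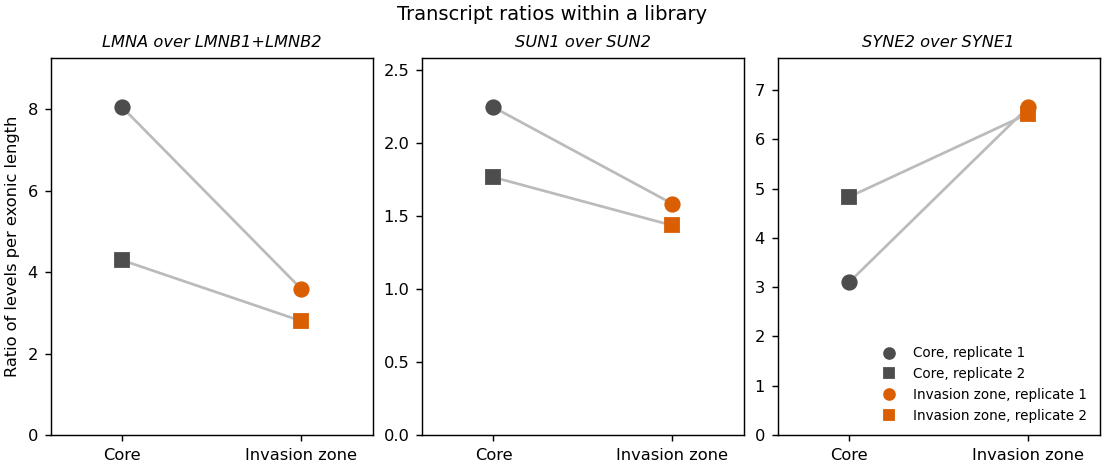
Ratios of levels per exonic base within each library (axes start at 0), with a grey line joining the zones of a replicate number. The ratio of LMNA to both B-type lamins is lower in the invasion zone in both replicates (8.05 to 3.59 and 4.29 to 2.80), as is SUN1 to SUN2, while SYNE2 to SYNE1 is higher.

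SUN1 and SUN2 form the inner membrane side of the LINC complex and can partly stand in for each other. SUN1 (ENSG00000164828, chromosome 7, 816615 to 896435, plus strand) had 322 and 282 CPM in the core and 266 and 215 CPM in the invasion zone. The zones did not overlap and the invasion zone was the lower one, with a log2 fold change of -0.33 (SE 0.17, adjusted p = 0.298), and -0.33 with the replicate block (SE 0.07, adjusted p = 0.00750). It was -0.19 without invasion zone replicate 2. SUN2 (ENSG00000100242, chromosome 22, 38733290 to 38794143, minus strand) had 101 and 112 CPM in the core and 118 and 106 CPM in the invasion zone, with the zones overlapping. Its difference was 0.22 in replicate 1 and -0.089 in replicate 2 (log2), and it passed neither test (adjusted p = 0.809, and 0.596 with the block). The ratio of SUN1 to SUN2 per exonic base was 2.25 and 1.77 in the core and 1.58 and 1.44 in the invasion zone, again without overlap. SUN1 shares 1842 of its 11850 exonic bases with GET4 on the same strand and SUN2 shares 1974 of 8354 with genes on the opposite strand, which leaves their counts less certain.

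The nesprins differed in which of them separated the zones. SYNE1 (ENSG00000131018, chromosome 6, 152121687 to 152637801, minus strand) encodes nesprin-1, a giant protein whose long form binds actin. It had 51.7 and 45.9 CPM in the core and 34.7 and 34.0 CPM in the invasion zone. The core was 1.49-fold and 1.35-fold higher within the replicates, and the SD of the invasion zone values was 0.53 CPM (n = 2). The log2 fold change was -0.51 (SE 0.15, adjusted p = 0.152), and -0.51 with the replicate block (SE 0.10, adjusted p = 0.00453). SYNE2 (ENSG00000054654, chromosome 14, 63761899 to 64226433, plus strand) encodes nesprin-2. It had 109 and 151 CPM in the core and 157 and 151 CPM in the invasion zone. Core replicate 1 was the only low library, and the zone difference was 0.53 in replicate 1 and -0.0011 in replicate 2 (log2). SYNE2 passed neither without a replicate term (adjusted p = 0.475) nor with the block (adjusted p = 0.107), and its log2 fold change of 0.25 became 0.040 without core replicate 1. The ratio of SYNE2 to SYNE1 was 3.10 and 4.83 per exonic base in the core and 6.66 and 6.52 in the invasion zone. GENCODE lists 51 transcripts of SYNE1 and 30 of SYNE2. The counts do not separate them, so these values cannot be assigned to the long form that binds actin.

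**Figure D3:**
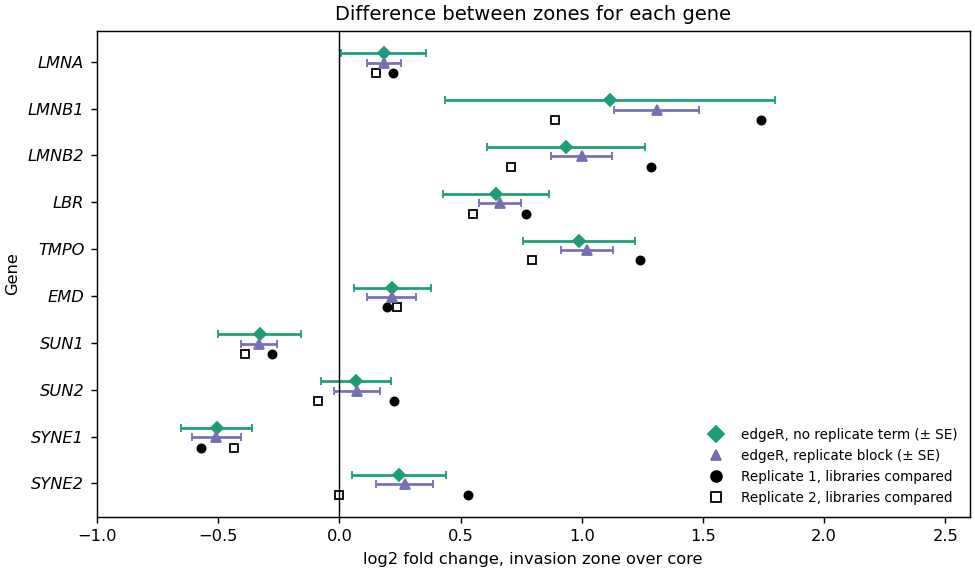
The log2 difference between invasion zone and core (positive where the invasion zone is higher) for each gene, as fitted by edgeR without a replicate term (diamonds) and with the replicate block (triangles), with SE bars, and as observed in each replicate (circles and squares). LMNB1 has the widest bar, 1.12 with SE 0.68, and SUN2 and SYNE2 are the genes whose replicates do not share a sign.

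Counting error was smaller than the zone difference within each replicate except for SYNE2 in replicate 2, where the difference of -0.0011 had a counting SE of 0.046. For SUN2 in replicate 2 the difference of -0.089 was less than 2 times its counting SE of 0.054. For the smallest counts among the 10 genes, 404 for SYNE1 in invasion zone replicate 2, it gave an SE of 0.090 on the log2 difference within that replicate, and for LMNA it gave 0.0078 and 0.012. The fitted SE without a replicate term was above the counting error for each of the 10 genes.

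Levels of different genes were compared per exonic base, as TPM (counts scaled by the union of annotated exons to the same total in each library), an estimate that assumes even coverage of each gene, which was not tested. LMNA stood at 967 ± 160 TPM (SD, n = 2) in the core and 1085 ± 115 TPM in the invasion zone, rank 81 among 15395 tested genes with a length. LMNB2 followed with 129 ± 60.2 and 242 ± 42.0 TPM, then SUN1 with 105 ± 6.26 and 82.8 ± 11.5 TPM. LBR, EMD, TMPO and LMNB1 averaged 78.0 to 87.2 TPM over the 4 libraries and SUN2 53.7 TPM. SYNE2 had 16.6 ± 4.38 and 19.5 ± 0.40 TPM, and SYNE1 had 4.22 ± 0.20 and 2.95 ± 0.018 TPM. In the order of mean TPM, neighbours from LMNB2 down to SUN2 overlapped in their libraries. LMNA above LMNB2, SUN2 above SYNE2 and SYNE2 above SYNE1 were separated in all 4 libraries. By zone, the order changed in the middle: LMNB1 had 19.9 TPM in core replicate 1, below all genes but the nesprins, and 145 TPM in invasion zone replicate 2, below only LMNA and LMNB2.

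Genes of the cell cycle moved with the B-type lamins, LBR and TMPO. A list of 43 S phase genes had a median log2 fold change of 1.19 and a list of 52 G2/M genes without LBR and TMPO 1.18, and with the replicate block 43 of 43 and 51 of 52 passed as higher in edgeR, against 19.4% of all genes. The median difference was 1.45 and 1.68 in replicate 1 and 1.00 and 0.94 in replicate 2 for the S phase and G2/M lists, and 1.26 and 0.75 for LMNB1, LMNB2, LBR and TMPO together. In the core, the summed CPM of the G2/M list was 3136 in replicate 1 and 5356 in replicate 2, and in the invasion zone 8131 and 9816. Its lowest library, core replicate 1, and its highest, invasion zone replicate 2, were those of LMNB1, LMNB2, LBR and TMPO as well. LMNA and EMD, which did not pass, had the same lowest and highest library. The part of the cell cycle in the lamin values was not tested.

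The other genes of the nuclear envelope were taken as 70 genes in 7 lists, of which 65 were tested. Without a replicate term 0 passed. With the replicate block 31 passed as higher and 5 as lower, 29 did not pass, and the median log2 fold change was 0.26. Over all genes 19.4% passed as higher and 19.4% as lower with the block. Fold changes and SE of single envelope genes are from the fit without a replicate term unless the block is named. The nuclear pore list contributed most: 20 of its 30 tested genes passed as higher and 0 as lower (19.4% of all genes each way), with a median of 0.52. NUP35, a linker nucleoporin, had 19.98 and 21.8 CPM in the core and 38.3 and 42.3 CPM in the invasion zone (log2 fold change 0.95, SE 0.16). NUP205, a scaffold of the inner ring, had 65.4 and 78.7 against 121 and 117 CPM (0.72, SE 0.15). RANBP2, of the cytoplasmic filaments, was the only pore gene with a negative value, -0.12 (SE 0.13), and did not pass.

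Among 5 lamin processing enzymes, 2 passed as higher with the block and 0 as lower, against 19.4% of all genes each way. ICMT, which methylates the farnesylated cysteine, had 193 and 250 CPM in the core and 296 and 346 CPM in the invasion zone (adjusted p = 0.000744 with the block). ZMPSTE24, the protease that matures prelamin A, had 190 and 223 against 263 and 304 CPM (adjusted p = 0.00135 with the block). FNTB, the beta subunit of farnesyltransferase, had a log2 fold change of -0.15 (SE 0.16). Of 5 LEM domain and BAF genes 3 passed as higher with the block (19.4% of all genes). Among them were BANF1, which encodes BAF itself (0.49, SE 0.10 with the block), and ANKLE2 (0.28, SE 0.074 with the block). LEMD3 (-0.24, SE 0.11 with the block) did not pass. Of 9 further inner membrane and torsin genes, 4 passed as higher and 1 as lower with the block (19.4% of all genes each way). TMEM201, which encodes Samp1, a partner of the LINC complex, had 26.8 and 27.3 CPM in the core and 53.1 and 48.2 CPM in the invasion zone. NRM, which encodes nurim, had a log2 fold change of 0.69 (SE 0.19). TOR1AIP1, which encodes the lamina-associated torsin activator LAP1, was the lower one, with 124 and 105 CPM against 91.7 and 78.9 CPM, and TOR1AIP2 (-0.16, SE 0.15) did not pass.

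**Figure D4:**
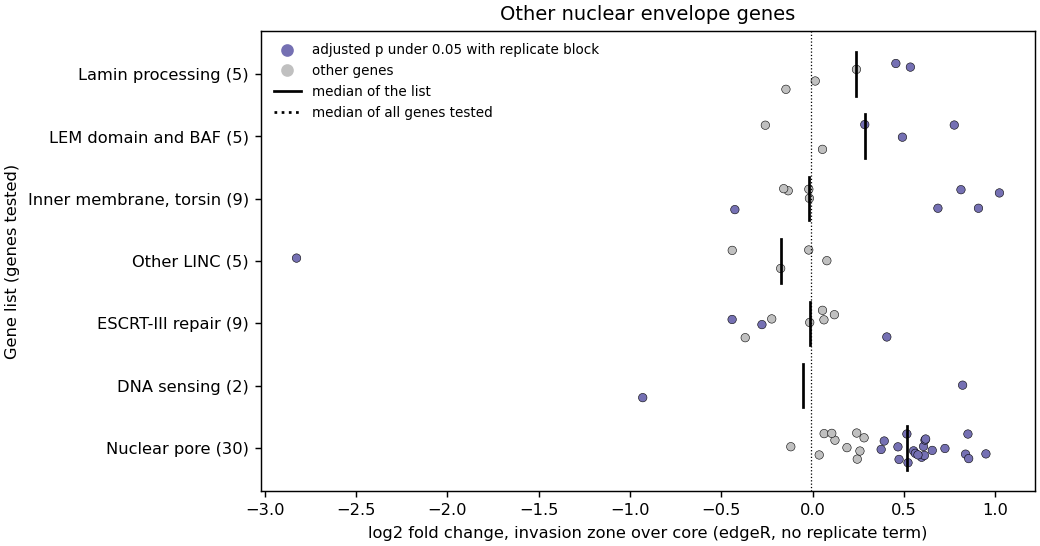
The log2 difference between invasion zone and core for 65 further nuclear envelope genes in 7 lists (points), with list medians as bars and the median of all genes tested as a dotted line. The nuclear pore list lies to the right of that line except for RANBP2, and the point furthest to the left is SPAG4 at -2.83.

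The largest difference in the wider envelope was that of SPAG4, a further SUN domain protein best known from the testis. SPAG4 had 36.3 and 34.2 CPM in the core and 6.51 and 3.03 CPM in the invasion zone. Its log2 fold change was -2.83 (SE 0.36, adjusted p = 0.128, and 7.06e-05 with the replicate block). It was the only one of the 5 tested genes of its list, the other LINC genes, to pass with the block, where 19.4% of all genes passed as lower. SYNE3 (-0.18, SE 0.26) and FHOD1, a formin that links nesprin-2 to actin (0.078, SE 0.41), did not pass, and SUN5 and KASH5 had 0 counts. Of 9 tested ESCRT-III and VPS4 genes, which reseal ruptured envelopes, 0 passed without a replicate term. With the block 1 passed as higher, VPS4A (0.41, SE 0.082), and 2 as lower, CHMP2A (-0.44, SE 0.079) and IST1 (-0.28, SE 0.080), where 19.4% of all genes passed each way. CHMP2B (0.12, SE 0.085 with the block) did not pass. Of the genes around cytosolic DNA sensing, TREX1 had 0 counts, and CGAS and STING1 went opposite ways. Exon overlap with other genes was looked at only for the 10 genes, so 0 counts need not mean that TREX1 was not expressed. CGAS had 22.6 and 33.2 CPM in the core and 36.6 and 61.9 CPM in the invasion zone (adjusted p = 0.000604 with the block), and STING1, which signals downstream of it, had 62.0 and 58.3 against 36.9 and 25.9 CPM (adjusted p = 0.000499 with the block).

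The genes whose values over the 4 libraries were closest to LMNA were EIF3A, BID and SLC48A1, with root mean square differences of 0.0065, 0.0070 and 0.011 in log2 CPM centred on each gene's mean. Those closest to LMNB1 were GINS4 (0.029), ARNTL2 (0.16) and RP11-366L20.2 (0.20). GINS4 had 3.88 and 14.1 CPM in the core and 12.6 and 27.1 CPM in the invasion zone, with the same overlap of core replicate 2 and invasion zone replicate 1 as LMNB1. With 4 libraries such closeness is a description.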

How the data were processed

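Bulk RNA was sequenced from the core and the invasion zone, with 2 libraries per zone, after cDNA synthesis with the SMARTer Ultra low Input kit. The authors removed ribosomal reads with Bowtie, aligned the rest to hg38 with STAR, used HTSeq to count the uniquely mapped ones per gene, and deposited raw counts. The versions, the annotation release and whether counting used strand are not given. Of 56306 table rows, 2 repeated rows without counts were left out. In R 4.3.3, edgeR 4.0.16 kept genes with 10 counts at the median library size in 2 libraries and 15 in total, scaled by TMM, and tested the zone without a replicate term. The SE is the log2 fold change divided by the square root of F. limma 3.58.1 and DESeq2 1.42.0 were alternatives.

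The protocol takes the core and then its corresponding invasion zone from a spheroid, which was read as pairing same-numbered libraries, although the number is not stated to mark a spheroid. Their deviations from the zone means correlated at 0.58 across genes, over 2 pairs. Same-zone libraries were not duplicates (chi-square per degree of freedom 20.7 and 19.2).

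The genes, lists and alternatives were chosen with earlier results of these data known. Every one of the 10 genes is named, and from each other envelope list up to 2 genes of the smallest p in each direction. Likeness used genes with a mean of at least 10 CPM. SUN5, KASH5 and TREX1 are named because they had no counts, which was chosen after their values were seen. CHMP4C, of the ESCRT-III and VPS4 list, had no counts either. Positions and lengths came from GENCODE 44 on GRCh38 (98.1% of rows matched). Counting errors cover counting only.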

Additional observations from a re-analysis of the deposited data

How the results depend on the processing

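The numbers of genes that passed without a replicate term, 0 higher and 0 lower over all genes, over the 10 genes and over the other envelope genes, were the same with RLE scaling, at least 10 counts in every library, limma voom, and a 2-fold minimum. Over all genes they were 1148 and 1425 of 32869 without a low count filter. Of 15529 genes, 3010 and 3009 passed with the replicate block (19.4% each way) and 815 and 866 with DESeq2 (5.25% and 5.58%). The block takes same-numbered libraries as pairs, which is an assumption. At an unadjusted p the numbers were 1841 and 1928 of 15529. With a library left out, 14910 to 17486 genes were tested. Leaving out a library gave 13 (without core replicate 1) to 898 (without invasion zone replicate 1) genes as higher, and 125 to 1331 as lower. Of the 10 genes, 4 higher and 0 lower passed without the filter, 4 and 2 with the replicate block, 2 and 0 with DESeq2, and 3 and 1 at an unadjusted p. With each library left out, 0 to 4 passed as higher and 0 as lower, where the lone library of a zone is assumed to vary like the other zone. Of the other envelope genes, 17 and 2 passed without the filter, 31 and 5 with the replicate block, 12 and 2 with DESeq2, 24 and 4 at an unadjusted p, and 0 to 9 higher and 1 to 2 lower with each library left out. The cause of these differences was not tested. Of 100 values of the 10 genes under these alternatives, 79 kept their direction and their side of the threshold and 20 passed in the same direction. SUN2 reversed without invasion zone replicate 1 (-0.017), and reached 0.15 without core replicate 2. The log2 difference in the ratio of LMNA to the B-type lamins was -0.44 without core replicate 1 and -1.34 without core replicate 2, and stayed between -1.34 and -0.44 over the libraries left out. With the length of the canonical transcript, the mean level was 1497 TPM for LMNA, 158 for SUN1 and 64.6 for SUN2, and SUN1 then ranked above LMNB2 (123).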
